A study of Solanum tuberosum with 8 samples.

Results

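Cut tubers of potato (Solanum tuberosum) from 2 cultivars, X2 and D6, were profiled by RNA-Seq on cutting and 4, 12 and 24 h later. The genes described here are those much lower at 0 and 4 h than at both 12 and 24 h in X2. They are 150 of the 42667 genes in the deposited table, and no ceiling was set on their 0 and 4 h levels. To be chosen, a gene needed a mean FPKM (fragments scaled to gene length and to the reads of the library) of at least 5 at 12 h in X2, less than a 2-fold difference between 24 h and 12 h in X2, and a 12 h mean in D6 within 4-fold of that in X2. Genes that the study assigns to pathways among its strong responders, lists as antioxidant or browning genes or as transcription factors, and 3 further genes, were left out. Its longer list of strong responders was not. On log2(mean FPKM + 0.1), the 9601 genes that met these conditions were ranked by the lower of the 12 and 24 h levels minus the higher of the 0 and 4 h levels, and the first 150 were taken.

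X2 is Xingjia 2, a tetraploid cultivar. D6 is named as a second cultivar in the sample labels only. Per the study's methods, X2 tubers were cut transversely, kept at high humidity, and sampled as blocks from epidermis to pith. Tubers were mixed within a replicate, and tissue taken at 0 h was the control. All X2 groups are thus freshly cut or wounded tuber tissue, and those methods name no applied agent. They do not mention D6, so its handling is not given there. The 21 libraries used were 11 of X2 (3 each at 0, 4 and 12 h, 2 at 24 h) and 10 of D6 (1 at 0 h, 3 each at 4, 12 and 24 h). The steps between low FPKM values implied 29746314 to 44921591 reads in the X2 libraries and 24226307 to 35649617 in those of D6, at which 3 reads on a gene of 1 kb stand for 0.0668 to 0.101 FPKM in X2 and 0.0842 to 0.124 FPKM in D6. Nothing in the labels says that the numbered D6 libraries came from separate tubers, so p-values measure only the spread between these libraries. One described gene for patatin, the major tuber storage protein, was at 21.8, 29.1 and 6.02 FPKM in the X2 libraries of 0 h and at 11.8 FPKM in that of D6. In X2 it was at 0.445, 4.08 and 0.466 FPKM at 4 h and at 0.191 to 1.64 FPKM in the later libraries. The D6 libraries had 2.44, 0.902 and 1.82 FPKM at 4 h, 3.43, 15.2 and 0.288 at 12 h, then 0.627, 5.04 and 0.104 at 24 h. No other patatin gene had a description to be found by. The study's tables that describe genes hold ones picked for large changes in X2, so this gene does not stand for patatin RNA as a whole. Tissue blocks hold many cell types, so a change in the number of cells of a type and a change in RNA per cell cannot be told apart in any value below.

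A cut tuber first seals its surface and then rebuilds a skin. Cells next to the wound deposit suberin, a polyester with phenolic and waxy parts, in their walls, and later a layer of cells below resumes division to form wound periderm. Resuming division requires new histones to package the copied DNA, while sealing draws on enzymes of cell wall remodelling, phenylpropanoids, lipids and flavonoids. Of the 150 genes, 135 carry PGSC identifiers and 15 were predicted by the authors from their own reads. The study's supplementary tables describe 26 of them, all 26 on its list of genes with very large fold changes in X2, and 124 are known here by identifier only and are given no function. The descriptions placed 20 genes in the lists used, among them 4 histones, 2 genes of DNA replication and chromatin assembly, 5 of the cell wall, 2 of phenylpropanoids and lignin and 3 of flavonoids. No sequences are shown, because the reference tables used here hold none for these identifiers.

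In X2, the median over the 150 genes of the group mean was 0.966 FPKM at 0 h, 2.47 at 4 h, 20.5 at 12 h, then 24.4 at 24 h. D6 had medians of 2.50 FPKM at 0 h, 4.76 at 4 h, 26.2 at 12 h, then 26.3 at 24 h. The X2 values and the 12 h values of D6 chose the genes, so they are given as a description and without a test. Together the 150 genes took 0.149 to 0.380% of the reads of the X2 libraries at 0 h, 0.432 to 0.488% at 4 h, 3.32 to 3.68% at 12 h, and 4.81 and 4.86% at 24 h. In D6 this share was 0.668% at 0 h, 0.533 to 0.934% at 4 h, 4.25 to 4.57% at 12 h, then 4.40 to 4.89% at 24 h. In both cultivars the share stepped up between 4 and 12 h.

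**Figure D1:**
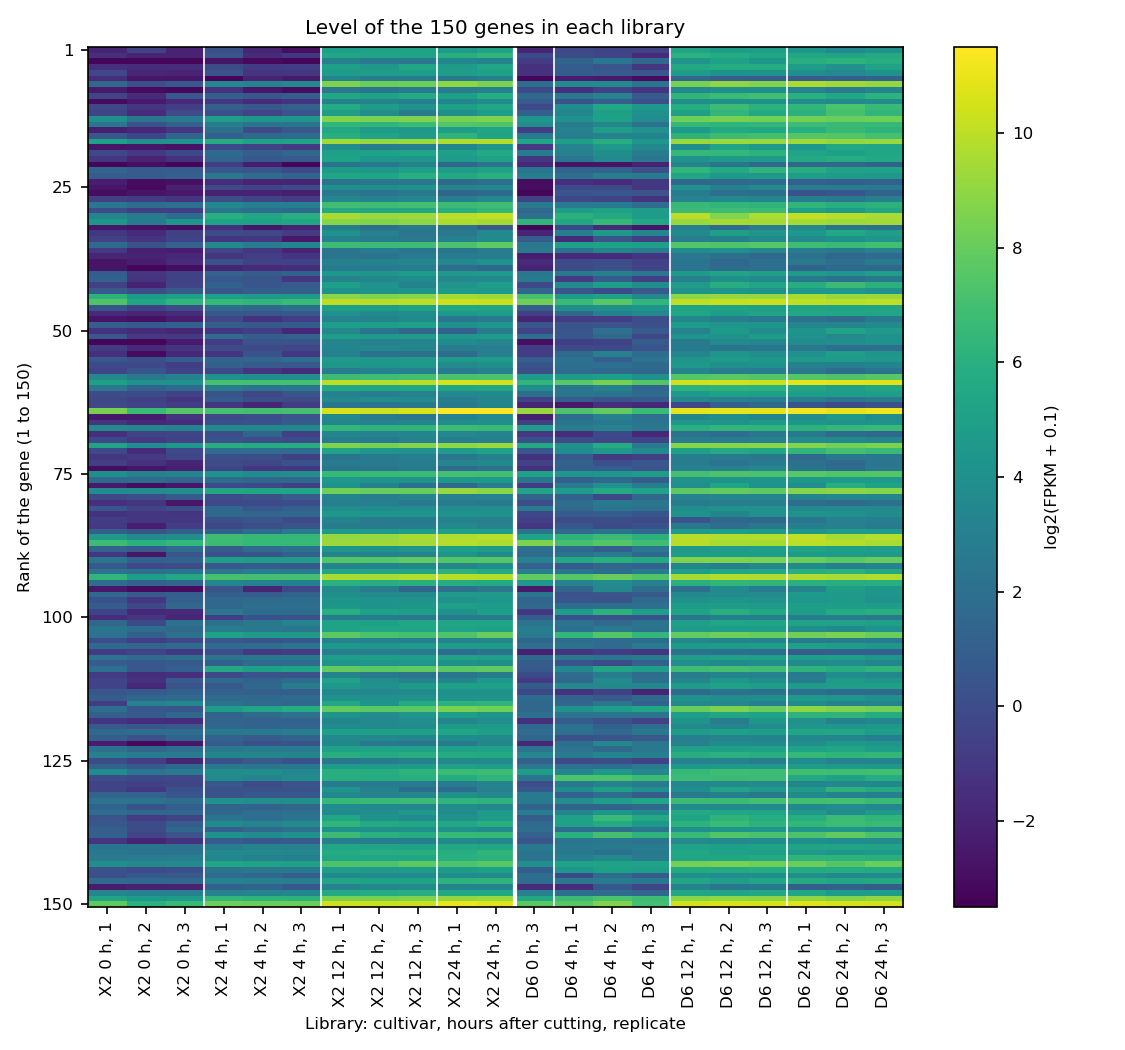
Level of the 150 genes (rows, in rank order) in the 21 libraries (columns, X2 left and D6 right, times from 0 to 24 h), as log2(FPKM + 0.1). The dark columns of 0 and 4 h change to lighter ones at 12 h in both cultivars, with a per-library median over the genes of 18.7 to 22.5 FPKM in X2 and 24.6 to 27.9 FPKM in D6 at 12 h.

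The rank order was led by histones, the proteins around which DNA is wound. PGSC0003DMG400023523, described as histone H4, had 0.159, 0.594 and 0.135 FPKM in the X2 libraries of 0 h, 1.01, 0.155 and 0.0366 at 4 h, 30.0, 33.5 and 37.3 at 12 h, then 23.5 and 36.3 at 24 h. In D6 it had 0.160 FPKM at 0 h, 0.734, 0.635 and 0.596 at 4 h, 38.4, 28.3 and 28.2 at 12 h, then 21.3, 12.6 and 18.4 at 24 h. Every library of 12 or 24 h lay above every earlier one in both cultivars. Histone H3.2, a form of histone H3, was described for 3 members. PGSC0003DMG400025246 was the highest of them, with 45.2, 38.8 and 34.6 FPKM in X2 at 12 h, then 60.2 and 83.3 at 24 h, against 0.142 to 1.27 FPKM in the 6 earlier libraries. In D6 it had 66.3, 54.3 and 43.1 FPKM at 12 h, then 45.0, 37.8 and 51.2 at 24 h. PGSC0003DMG400032112 had means of 28.0 FPKM at 12 h and 31.4 at 24 h in X2, and 20.8 and 14.4 FPKM at these times in D6. PGSC0003DMG400008610 was the lowest of the histones, with 4.88, 5.74 and 8.73 FPKM at 12 h, then 2.71 and 4.51 at 24 h in X2. Its 3 X2 libraries of 0 h held no more than 3 reads each, so its 12 h mean was at least 52.7-fold higher than at 0 h. Histone genes form families of near-identical copies, and how reads matching several copies were counted is not given in the sources used here, so the split between these genes is uncertain.

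At 4 h, the histones of X2 were uneven between libraries. Replicate 1 had 29 reads on the histone H4 gene, the most of any 4 h library of X2 or D6, and its 1.01 FPKM compares with 0.155 and 0.0366 in the other X2 libraries of that time. The same library was the highest of the 3 for each H3.2 gene, at 1.27 against 0.228 and 0.370 FPKM for PGSC0003DMG400025246 and at 1.15 against 0.348 and 0.385 FPKM for PGSC0003DMG400032112. All of these values were below the lowest histone value of 12 h in X2.

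Both members of the replication list were also lower at 0 and 4 h than later in X2, by the rule. The log2 ratio of their 24 h to their 12 h mean there was -0.63 (ASF1A) and -0.97 (CDT2). In the 4 histones it ran from -0.82 to 0.86. ASF1A, a chaperone that hands histones H3 and H4 to newly copied DNA (PGSC0003DMG400030514), had 16.5, 15.8 and 17.5 FPKM in X2 at 12 h, then 9.94 and 11.4 at 24 h, against 0.653 to 0.845 FPKM at 4 h and 0.0159 to 0.133 at 0 h. The D6 libraries had 17.1, 8.26 and 11.8 FPKM at 12 h, then 6.81, 6.97 and 6.10 at 24 h. CDT2 proteins take part in the destruction of a replication licensing factor. The CDT2 gene (PGSC0003DMG400012630) had 6.13, 5.95 and 6.92 FPKM at 12 h, then 3.57 and 2.81 at 24 h in X2. In both cultivars its 24 h libraries lay below its 12 h libraries, with 2.28, 3.03 and 2.72 FPKM at 24 h and 4.55, 3.33 and 3.90 at 12 h in D6.

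The only libraries that played no part in choosing the genes are those of D6 at 4 and 24 h (and the single one at 0 h), so the test was made between them. The question was whether genes chosen for a lasting level in X2 were also higher at 24 h than at 4 h in D6. With limma on log2(FPKM + 0.1), 132 of the 150 genes were called higher at 24 h than at 4 h and 1 was called lower, a call being an unadjusted p of 0.01 or less with |log2FC| of 1 or more. Over all 20143 genes tested, 19.6% were called higher and 16.2% lower. The median log2FC was 2.69 over the 150 genes and -0.05 over all genes tested, and all 150 passed the filter on low values. In 135 of the 150 genes every 24 h library lay above every 4 h library, against 34.5% of all genes tested, and in 1 every 24 h library lay below, against 38% of all genes. With an adjusted p of 0.05 or less in place of the unadjusted p, 137 of the 150 genes and 20.5% of all genes were higher at 24 h. Among the genes called higher, the largest adjusted p (Benjamini-Hochberg over all genes tested, limma) was 0.017 and the smallest log2FC 1.03. The choice did bound D6 at 12 h, and 87.7% of all genes were within 2-fold between 24 h and 12 h in D6. The 24 h level of the 150 genes in D6 was therefore partly set by the choice. Shares over all genes, which were not so chosen, are not a like comparison.

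**Figure D2:**
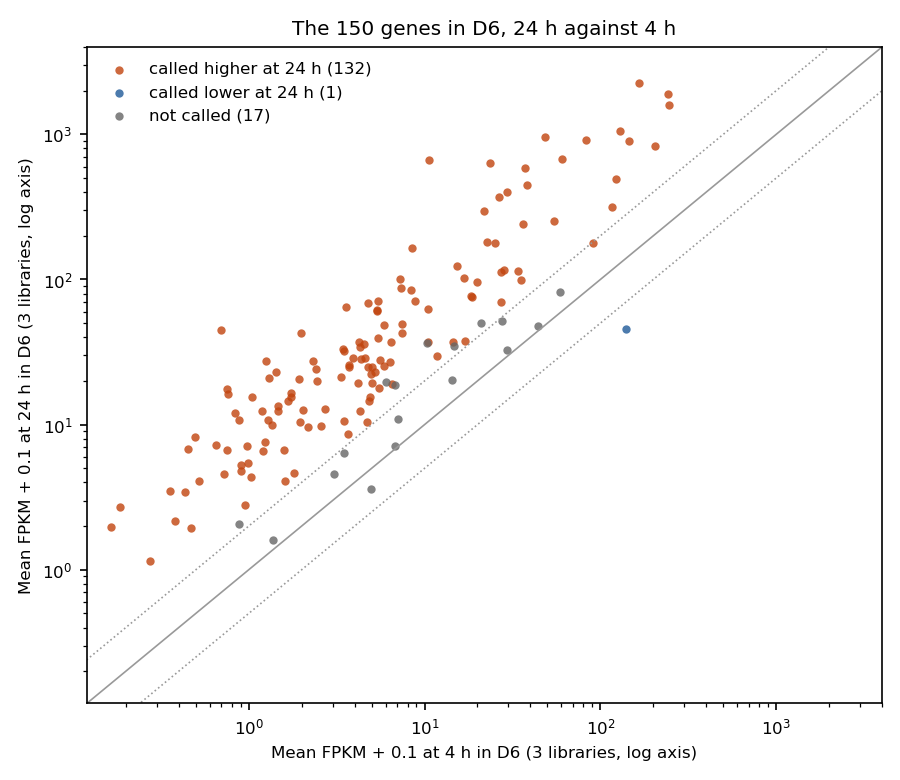
Mean FPKM + 0.1 of the 150 genes in D6 at 24 h (vertical axis) against 4 h (horizontal axis), 3 libraries each, both axes logarithmic. The solid line marks equal levels and the dotted lines a 2-fold difference, with 132 genes called higher at 24 h, 1 called lower (expansin) and 17 not called.

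All 4 histones were among the 132 of 150 genes called higher in D6, against 19.6% of all genes tested. The H3.2 gene PGSC0003DMG400025246 had the largest log2FC of the 150 genes, 6.16 ± 0.42 (SE, 3 libraries each; limma adjusted p = 2.42e-05), with 45.0, 37.8 and 51.2 FPKM at 24 h and 0.907, 0.689 and 0.201 FPKM at 4 h. Histone H4 followed the same direction at 4.51 ± 0.22 (limma adjusted p = 9.24e-06). ASF1A and CDT2 were called too, at log2FC of 3.23 and 1.56. Another 8 histone genes described in the study's tables lie outside the 150, and 8 of 8 were called higher, as were 28 of the 32 tested genes of the replication list. In the other lists with members, genes outside the 150 were less uniform, apart from flavonoids (9 of 9 called higher). Phenylpropanoids and lignin had 18 called higher and 13 lower of 48 tested, and sugar transferases of small molecules 5 and 3 of 9. Cell wall genes had 21 and 1 of 29, and suberin, cutin and wax lipids 2 and 1 of 4. Kinases and signalling had 30 and 6 of 53, and proteases and inhibitors 3 and 0 of 5. Those tables hold genes picked for large changes on the X2 samples, so these counts are no independent evidence of a direction.

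**Figure D3:**
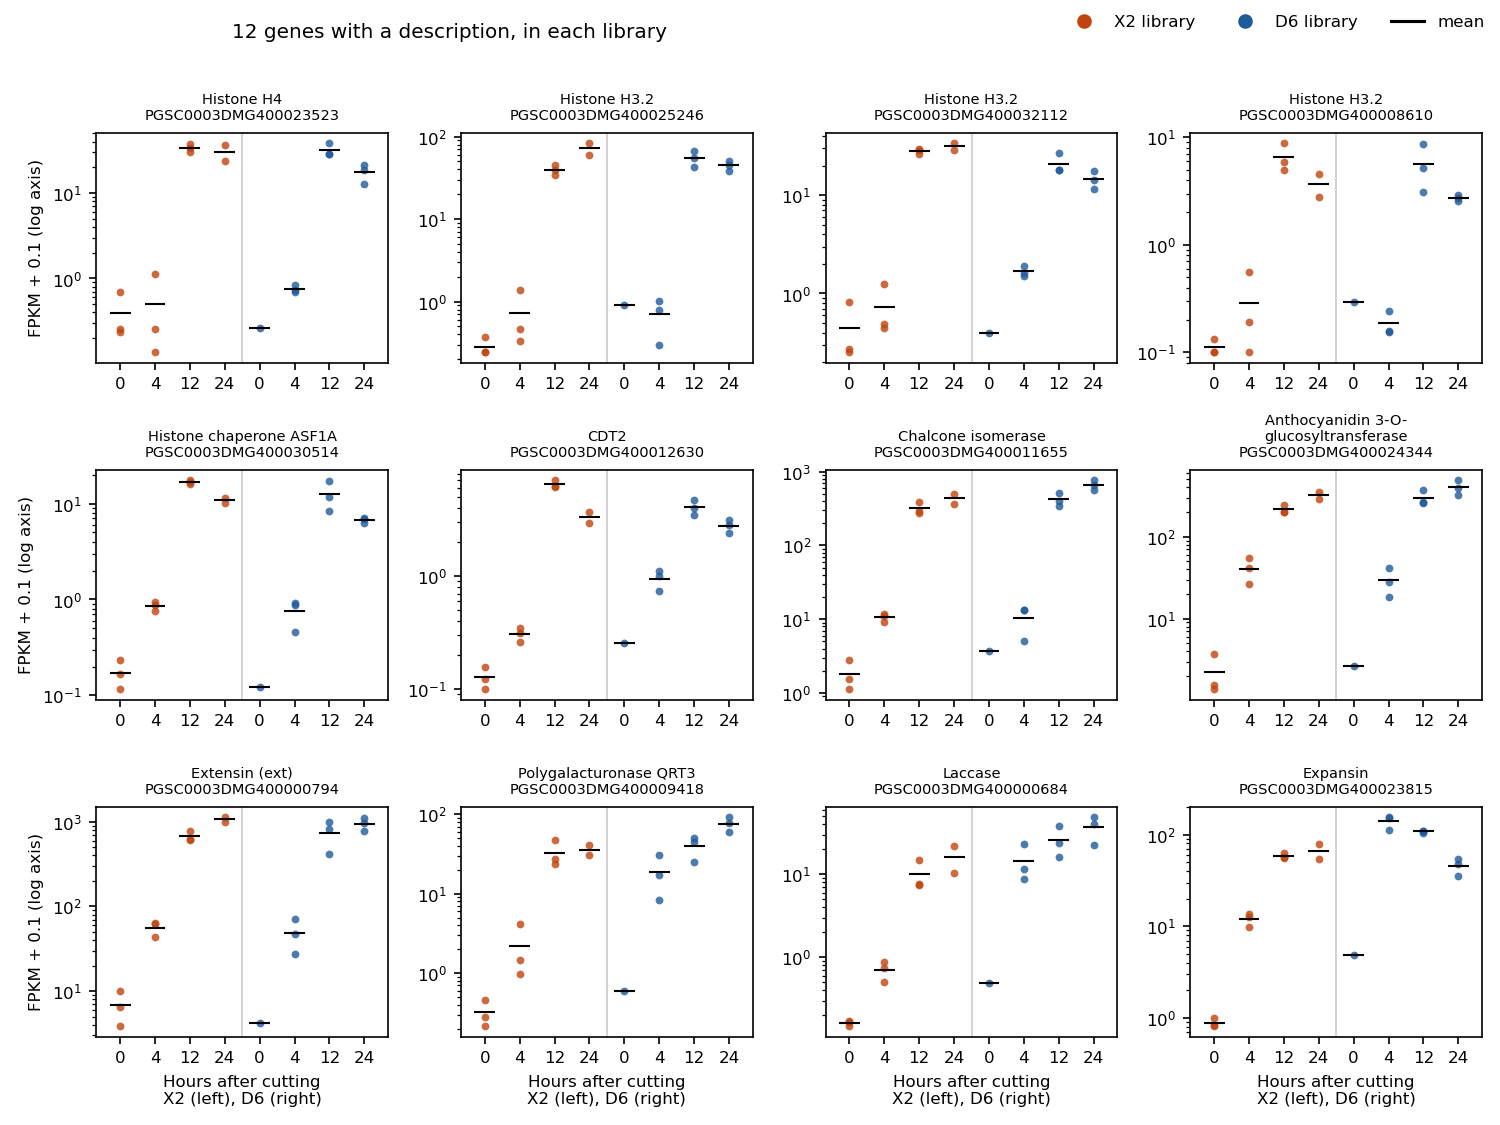
FPKM + 0.1 (log axis) of 12 described genes in each library, by hours after cutting, with X2 libraries in red on the left, D6 libraries in blue on the right and group means as black bars. The histones, ASF1A and CDT2 are at or below 2 FPKM until 4 h, while expansin, laccase and polygalacturonase QRT3 are already above 8 FPKM at 4 h in each D6 library.

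The 3 flavonoid genes reached means over 200 FPKM at 12 h in X2. Chalcone isomerase, which closes the ring of flavonoid precursors (PGSC0003DMG400011655), had 2.66, 1.02 and 1.46 FPKM at 0 h, 10.9, 9.02 and 11.7 at 4 h, 392, 275 and 292 at 12 h, then 504 and 369 at 24 h in X2. D6 had 3.63 FPKM at 0 h, 13.1, 13.2 and 4.99 at 4 h, 344, 514 and 402 at 12 h, then 768, 655 and 569 at 24 h. The cultivars overlapped at 4 and 12 h, and all 3 D6 libraries of 24 h were above both of X2. Between 24 h and 4 h in D6 its log2FC was 6.09 ± 0.36 (SE; limma adjusted p = 1.64e-05), the second largest of the 150. Anthocyanidin 3-O-glucosyltransferase, which adds glucose to anthocyanidins (PGSC0003DMG400024344), had means of 2.11, 40.8, 215 and 324 FPKM at 0, 4, 12 and 24 h in X2 and of 2.58, 29.5, 296 and 403 FPKM in D6. Anthocyanin acyltransferase (PGSC0003DMG400007800) was at 234, 205 and 215 FPKM in X2 at 12 h, then 204 and 221 at 24 h. Its D6 libraries had 115, 132 and 115 FPKM at 12 h, then 76.4, 58.1 and 75.7 at 24 h, below every X2 library of the same hour. All 3 flavonoid members were called higher in D6 at 24 h than at 4 h, as were 132 of the 150 genes and 19.6% of all genes tested. For the acyltransferase (PGSC0003DMG400007800) the call, at log2FC 1.53 ± 0.42 (SE; limma adjusted p = 0.0138), was lost without replicate 3 of 4 h (log2FC 1.68) and without replicates 1, 2 or 3 of 24 h (1.46, 1.66 and 1.47). In X2 every 4 h library of each flavonoid gene lay above every 0 h library.

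The gene described as UDP-glucuronosyltransferase (PGSC0003DMG400011031), of the family that attaches sugars to small molecules, ranked 4. It had 0.235 to 0.262 FPKM at 0 h and 0.454 to 0.910 at 4 h, then 30.8, 23.6 and 41.9 at 12 h, then 28.0 and 41.1 at 24 h in X2. In D6 it was at 29.9, 16.8 and 35.4 FPKM at 24 h and 1.75, 1.34 and 0.364 FPKM at 4 h, a log2FC of 4.61 ± 0.52 (SE; limma adjusted p = 0.00019). The gene described as anthranilate N-benzoyltransferase, of a family of acyl transferases that act on phenolic and lipid precursors (PGSC0003DMG400007155), had 36.1, 22.2 and 20.9 FPKM at 12 h in X2 and 26.0 and 33.6 at 24 h. D6 libraries had 46.8, 55.0 and 46.1 FPKM at 24 h and 4.81, 11.9 and 5.17 FPKM at 4 h.

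Of the 5 cell wall genes, 3 were called higher in D6 at 24 h than at 4 h, 1 lower and 1 neither. Of all 150 genes, 132 were called higher, against 19.6% of all genes tested. Extensins are hydroxyproline-rich proteins that cross-link the wall. PGSC0003DMG400000794, one of 2 described as extensin, was the most abundant described gene of the 150, with 9.88, 6.43 and 3.75 FPKM at 0 h, 62.2, 43.4 and 63.1 at 4 h, 787, 602 and 623 at 12 h, then 1002 and 1135 at 24 h in X2. In D6 it had 1115, 958 and 783 FPKM at 24 h and 70.9, 46.7 and 27.7 FPKM at 4 h, a log2FC of 4.38 ± 0.32 (SE; limma adjusted p = 3.08e-05). The other extensin, PGSC0003DMG400000781, stayed much lower, at 7.14, 3.90 and 5.44 FPKM in X2 at 12 h, and its 0 h libraries of X2 held no more than 3 reads each. Polygalacturonase QRT3, a pectin-cleaving enzyme named from Arabidopsis (PGSC0003DMG400009418), had 59.0, 92.2 and 77.5 FPKM at 24 h and 8.11, 30.3 and 17.0 FPKM at 4 h in D6, against 0.486 FPKM at 0 h. In X2 its 4 h libraries had only 4.00, 0.884 and 1.36 FPKM, below every 4 h library of D6.

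Expansin, a protein that loosens walls (PGSC0003DMG400023815), was the one gene called lower in D6 at 24 h than at 4 h. X2 libraries had 0.892, 0.740 and 0.713 FPKM at 0 h, 12.6, 9.64 and 13.4 at 4 h, 56.9, 55.5 and 63.5 at 12 h, then 53.8 and 79.1 at 24 h. Its D6 libraries had 4.73 FPKM at 0 h, 155, 153 and 111 at 4 h, 110, 105 and 109 at 12 h, then 47.2, 34.9 and 54.3 at 24 h. The log2FC between 24 h and 4 h in D6 was -1.62 ± 0.20 (SE; limma adjusted p = 0.000252), and the 2 groups did not overlap. In X2 the rule allowed a highest mean at 12 or 24 h only, and that of expansin was at 24 h. In D6, where the rule put no condition on 4 h, the highest mean was at 4 h. Endo-beta-1,4-D-glucanase, an enzyme of glucan chains in the wall (PGSC0003DMG400012288), peaked at 12 h in D6 with 112, 114 and 106 FPKM. It was at 31.4, 23.3 and 43.6 FPKM at 24 h and 26.1, 35.9 and 26.6 FPKM at 4 h there, groups that overlap (log2FC 0.12 ± 0.23, SE; limma adjusted p = 0.678). In X2 its 24 h libraries, at 59.0 and 88.9 FPKM, were above those of 12 h, at 50.6, 47.0 and 46.7 FPKM.

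Laccase, an oxidase of lignin precursors (PGSC0003DMG400000684), and dirigent 1, named for proteins that guide the coupling of these precursors (PGSC0003DMG400005426), are the members of the phenylpropanoid list. Laccase had 0.390 FPKM at 0 h, 8.63, 22.9 and 11.6 at 4 h, 15.8, 37.8 and 23.9 at 12 h, then 22.6, 48.6 and 39.7 at 24 h in D6. Its 24 h and 4 h libraries there overlapped, and the call at log2FC 1.41 ± 0.40 (SE; limma adjusted p = 0.0154) was lost without 4 of the 6 libraries in turn, namely replicates 1 and 3 of 4 h (log2FC 1.11 and 1.32) and replicates 2 and 3 of 24 h (1.18 and 1.32). At 4 h the X2 libraries had 0.770, 0.637 and 0.408 FPKM of laccase, against 8.63 or more in D6. Dirigent 1 was at 1.09, 0.564 and 0.603 FPKM in X2 and 0.899, 0.949 and 0.580 FPKM in D6 at 4 h, levels that overlap, and at 11.2 and 17.6 FPKM in X2 and 5.54, 3.97 and 6.06 FPKM in D6 at 24 h.

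Of the 8 remaining described genes outside the roles above, 7 were called higher in D6 at 24 h than at 4 h. The call was made in 132 of the 150 genes and in 19.6% of all genes tested. Serine carboxypeptidase, a protein-trimming enzyme (PGSC0003DMG400014250), had 42.5, 43.0 and 41.9 FPKM at 24 h and 2.77, 8.44 and 10.7 FPKM at 4 h in D6. The gene not called was that described as gamma-gliadin, a name of wheat storage proteins (PGSC0003DMG400006237), at 9.12, 28.5 and 21.5 FPKM at 24 h and 2.59, 11.6 and 3.55 FPKM at 4 h in D6, which overlap (log2FC 1.88 ± 0.61, SE; limma adjusted p = 0.0264).

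Many of the highest ranks had no description. PGSC0003DMG400011619, ranked 3, had no read in any X2 library of 0 h and 4, 1 and 0 reads at 4 h, then 8.10, 5.58 and 5.56 FPKM at 12 h, then 11.2 and 9.26 at 24 h. In D6 it was higher at every time, with 0.440 FPKM at 0 h, 2.39, 5.15 and 2.90 at 4 h, 20.1, 33.6 and 20.4 at 12 h, then 61.6, 72.6 and 58.4 at 24 h. It is the member furthest below D6 at 4 h, at -4.78 in mean log2(FPKM + 0.1) for X2 minus D6. PGSC0003DMG400024029, ranked 6, had the opposite difference at the later times, with 9.66, 6.19 and 6.48 FPKM at 12 h in X2 and 2.61, 1.98 and 1.68 FPKM in D6. Undescribed members of high rank included some of high abundance, such as PGSC0003DMG400000432 (means of 22.5, 43.3, 615 and 856 FPKM at 0, 4, 12 and 24 h in X2) and PGSC0003DMG400011749 (8.98, 23.0, 382 and 368 FPKM). Novel00325, a predicted gene on the plus strand of chromosome 1 at 71822585 to 71825313 in the coordinates of the authors' file, was at 42.5, 35.2 and 51.4 FPKM at 12 h in X2, 78.0, 107 and 124 FPKM at 12 h in D6, and no more than 8.71 FPKM at 4 h in either.

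The most abundant member at 12 h, PGSC0003DMG400024281, was already abundant on cutting. It had 341, 105 and 185 FPKM at 0 h, 143, 126 and 133 at 4 h, 1574, 1382 and 1589 at 12 h, then 2895 and 2782 at 24 h in X2. It is named here after its values were seen. In D6 it stood at 593 FPKM at 0 h and 159, 234 and 106 at 4 h, so both cultivars had a lower mean at 4 h than at 0 h. The mean at 4 h was below that at 0 h in 14 of the 150 genes in X2, in 53 in D6, where 0 h is a single library, and in 10 in both. In X2 every 4 h library lay above every 0 h library in 97 of the 150 genes, and the reverse held in 2. Of the 123 members with a mean of at least 0.5 FPKM over these libraries, every 4 h library was above in 82, against 53.7% of all 19063 such genes, and below in 1, against 30%. At 4 h 79 of the 150 genes of X2 were at least 2-fold above 0 h, and 66 of the 123, against 36% of all such genes. At the other end, 76 genes had a mean under 1 FPKM at 0 h in X2 and 40 at 4 h, against 52 in the D6 library of 0 h and 26 at 4 h in D6.

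The 4 h mean of X2 was at least 2-fold below that of D6 in 52 of the 150 genes and at least 2-fold above it in 8. Of the members, 141 had enough signal at 4 h (a mean of 0.5 FPKM over both cultivars), with 50 at least 2-fold lower in X2. Over all 19455 such genes, 11.1% were at least 2-fold lower and 8.87% at least 2-fold higher in X2. At 12 h these numbers were 23 and 7 of 150 genes (7.57 and 6.49% of all genes), and at 24 h 19 and 17 (7.85 and 6.4%). The rule chose genes lower in X2 at 4 h than at 12 and 24 h and put no such condition on D6. It also held D6 near X2 at 12 h. These differences are therefore a description and nothing is read from them. Among the members most below D6 at 4 h were PGSC0003DMG400023627, at 0.860, 0.714 and 0.450 FPKM in X2 and 7.87, 25.3 and 10.8 FPKM in D6, PGSC0003DMG400023629, at 1.01, 0.653 and 1.20 FPKM in X2 and 10.3, 33.0 and 15.9 FPKM in D6, and PGSC0003DMG402000216, at 1.07, 1.10 and 1.12 FPKM in X2 and 13.7, 32.3 and 16.5 FPKM in D6. On the other side, PGSC0003DMG400000534 had 2.14, 1.99 and 1.97 FPKM in X2 and 0.300, 0.556 and 0.139 FPKM in D6, and PGSC0003DMG400000988 had 9.41, 10.3 and 11.4 FPKM in X2 and 3.78, 3.56 and 2.72 FPKM in D6.

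**Figure D4:**
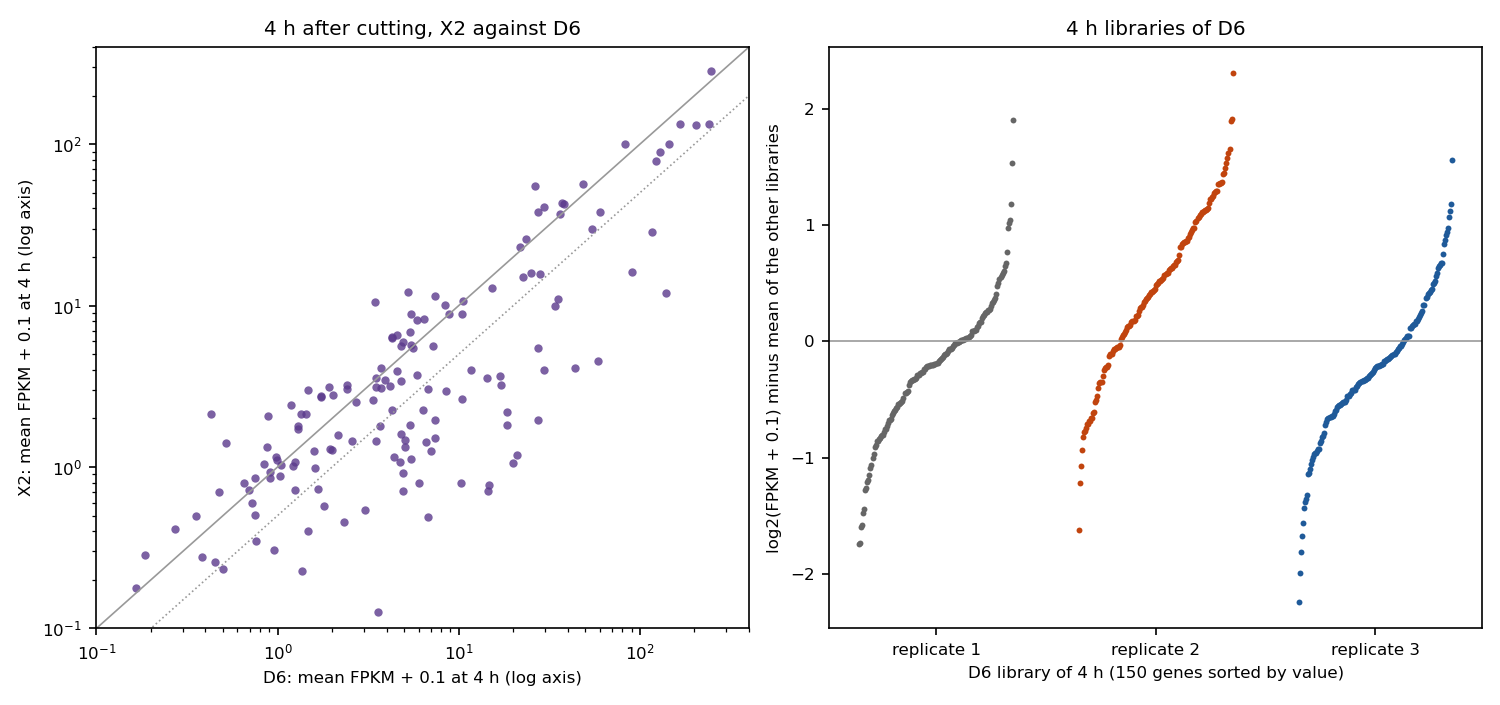
Left, mean FPKM + 0.1 at 4 h of the 150 genes in X2 (vertical) and D6 (horizontal), both axes logarithmic, with lines at equal level (solid) and at 2-fold lower in X2 (dotted), 52 genes lying below the dotted line by the measure used in the text. Right, each D6 library of 4 h minus the mean of the other libraries of that time in log2(FPKM + 0.1), genes sorted by value, where replicate 2 is shifted upward.

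The 4 h libraries of D6 were not alike for these genes. Replicate 2 had the highest value of the 3 in 91 of the 150 genes, against 27.8% of the 20058 genes with enough signal in D6. It was more than 1.5-fold above both others in 50 of the 150, against 5 for replicate 1 and 8 for replicate 3. Over the 20058 genes these 1.5-fold shares were 4.04% for replicate 2, 3.85% for replicate 1 and 6% for replicate 3. Without that library, 139 of the 150 genes were called higher at 24 h than at 4 h, and 48 were at least 2-fold lower in X2 than in D6 at 4 h.

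In 25 of the 150 genes replicate 2 was the highest D6 library at 4, 12 and 24 h alike, against 2.98% of all genes. Laccase, polygalacturonase QRT3, the anthranilate N-benzoyltransferase gene, the gamma-gliadin gene and a gene described as a lyase are among them. The undescribed PGSC0003DMG400010076 is too, and is named here after its values were seen. It had 4.89, 3.71 and 4.68 FPKM at 4 h and 41.1, 18.7 and 13.5 at 12 h in X2, against 34.2, 95.6 and 46.8 FPKM at 4 h, 38.3, 75.8 and 55.2 at 12 h, then 58.4, 106 and 80.9 at 24 h in D6. In X2, 24 of these 25 genes were highest in replicate 1 of 12 h, against 34.5% of all genes and 67 of the 150. In 22 of the 25 the 4 h mean of X2 was at least 2-fold below that of D6, and in 30 of the other 125. These genes were grouped after their values were seen, and no test was made on the grouping. The patatin gene was also highest in replicate 2 of D6 at 12 and 24 h, and lowest in it at 4 h. The part of tissue make-up in these values was not tested.

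In 13 of the 150 genes the 4 h mean of D6 was already within 2-fold of, or above, its 12 h mean, which no member could show in X2 by the rule. The 4 h mean of expansin was 20.3% of its 12 h mean in X2 and 129% in D6, that of PGSC0003DMG400010076 18.1% in X2 and 104% in D6, and that of PGSC0003DMG400027168 9.39% in X2 and 94.2% in D6. PGSC0003DMG400027168 had 29.3, 53.4 and 59.6 FPKM at 24 h and 30.5, 72.3 and 29.1 FPKM at 4 h in D6, which overlap (log2FC 0.18 ± 0.40, SE; limma adjusted p = 0.708). Of the 13 genes, 4 were called higher at 24 h than at 4 h, 1 lower and 8 neither. Over all genes tested, 19.6% were called higher and 16.2% lower. The 13 genes were picked for a high 4 h mean in D6, the baseline of that test, so nothing is read from these calls. The median over the 150 genes of the 4 h mean as a share of the 12 h mean was 13.4% in X2 and 15.1% in D6.

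The 17 genes not called between 24 h and 4 h in D6 had log2FC from -0.44 to 1.88, 16 of them positive. PGSC0003DMG400021437 was at 6.94, 5.79 and 8.21 FPKM at 24 h and 4.27, 9.58 and 6.17 FPKM at 4 h, near its single 0 h value of 5.94 FPKM. In X2 this gene had 0.104 to 0.399 FPKM at 0 h. PGSC0003DMG400030566 was at 1.07, 1.25 and 2.18 FPKM at 24 h and 1.25, 1.38 and 1.18 FPKM at 4 h, after 6.86, 3.80 and 3.66 FPKM at 12 h. Novel02902, on the plus strand of chromosome 7 at 7949060 to 7962603, was at 3.60, 2.96 and 3.95 FPKM at 24 h and 3.63, 5.73 and 5.16 FPKM at 4 h. Whether spread between the 4 h libraries had a part in the missed calls was not tested. PGSC0003DMG400007241 had 0.231, 1.43 and 0.688 FPKM at 4 h, all below 1.96, 2.16 and 1.76 FPKM at 24 h, and missed the threshold (log2FC 1.48 ± 0.51, SE; limma adjusted p = 0.0347).

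Whether the later level lasted in D6 was described from 24 h against 12 h, since the 12 h values bounded the choice. In D6, 133 of the 150 genes were within 2-fold between the 2 times, 6 were at least 2-fold higher at 24 h and 11 at least 2-fold lower. Over 19819 genes with enough signal the shares were 87.7% within 2-fold, 7.63% higher and 4.67% lower, so the share of members that held their level in D6 is near that of all genes. The 24 h mean was above the 12 h mean in 101 genes in X2 and in 80 in D6. PGSC0003DMG400011619 was among the 6 higher ones, at a log2 ratio of 1.37, with the anthranilate N-benzoyltransferase gene at 1.08 and the gamma-gliadin gene at 1.35. The lower ones included endo-beta-1,4-D-glucanase at -1.76, PGSC0003DMG400007241 at -1.74, PGSC0003DMG400030566 at -1.61, expansin at -1.25 and the H3.2 gene PGSC0003DMG400008610 at -1.06. For PGSC0003DMG400008610 the D6 libraries were at 2.80, 2.61 and 2.44 FPKM at 24 h and 8.66, 5.04 and 3.03 FPKM at 12 h. PGSC0003DMG400032208, ranked 19, was at 31.5 and 50.2 FPKM at 24 h and 31.5, 37.2 and 41.4 FPKM at 12 h in X2, and at 38.8, 32.2 and 39.5 FPKM at 24 h and 90.6, 85.6 and 74.4 FPKM at 12 h in D6.

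**Figure D5:**
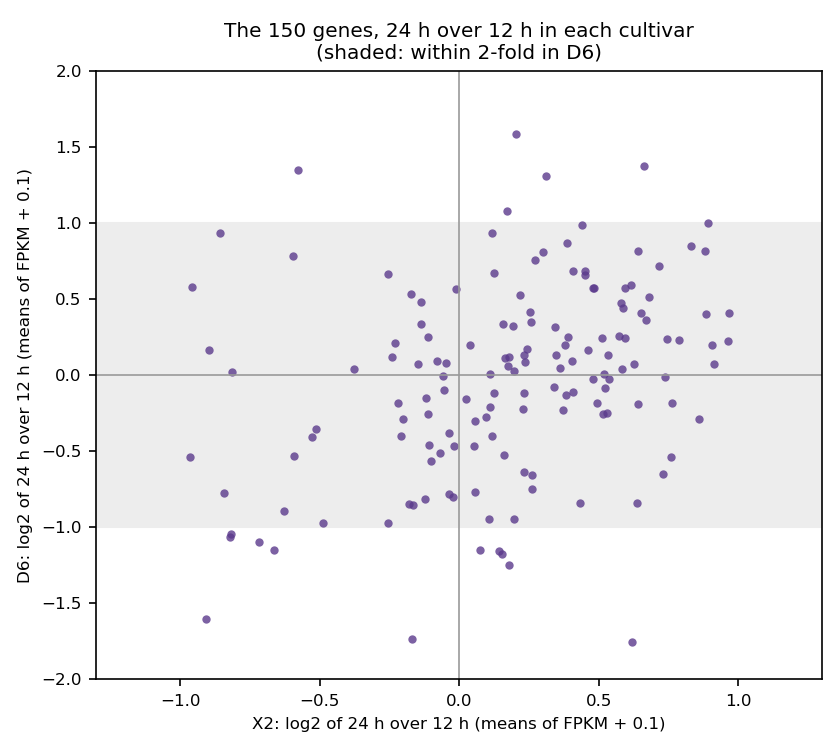
Log2 ratio of the 24 h to the 12 h mean (FPKM + 0.1) of each of the 150 genes in D6 (vertical) and X2 (horizontal). The X2 ratios are bounded at 1 and -1 by the choice of genes, and 133 genes fall within the shaded 2-fold band in D6, with 11 below it and 6 above.

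Across the 15 predicted genes, 13 were called higher in D6 at 24 h than at 4 h, and Novel02902 and Novel03035 were not called. This is near the share over all 150 genes, of which 132 were called higher, against 19.6% of all genes tested. Novel00539, on the minus strand of chromosome 1 at 60867456 to 60869907, had the fourth largest log2FC of the 150 genes, 4.64 ± 0.49 (SE; limma adjusted p = 0.000138), with 12.5, 16.3 and 19.7 FPKM at 24 h and 0.208, 1.26 and 0.529 FPKM at 4 h. PGSC0003DMG400011740 had the third largest, 4.89 ± 0.38, from 731, 553 and 615 FPKM at 24 h and 25.5, 34.1 and 10.9 FPKM at 4 h. At 0 h that gene was at 73.5, 25.8 and 31.5 FPKM in X2 and at 139 FPKM in the D6 library. The spread between replicates was widest at 4 h for these genes in D6, with a median SD of 0.48 in log2(FPKM + 0.1), against 0.20 at 12 h and 0.23 at 24 h.

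The values of the rule changed smoothly across its limit. The score, the lower of the 12 and 24 h levels minus the higher of the 0 and 4 h levels in log2(mean FPKM + 0.1), was 5.90 for the first gene, 2.72 at the median and 2.20 for the last. The last 3 genes inside were PGSC0003DMG400000988 at 2.21, PGSC0003DMG400010900 at 2.21 and PGSC0003DMG400021142 at 2.20. The first 3 outside were PGSC0003DMG400017732 at 2.20, PGSC0003DMG400003007 at 2.19 and PGSC0003DMG400008307 at 2.19, so the limit separates no distinct group.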

How the data were processed

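The authors filtered reads, mapped them with HISAT to SolTub_3.0, counted them with featureCounts v1.5.0-p3 and deposited FPKM, per gene length and library reads, in 1 table for the series. The submitters' processing notes instead name CASAVA 1.8, Bowtie 0.12.2 and the mouse build mm8. Start, end and length of predicted genes are other deposited values, from the authors' file. Columns were assigned by name. Of a pair of columns that share the heading for replicate 2 of X2, 4 h, the first was taken, which left 1 value column out. GEO lists 1 sample per cultivar and time, so replicates are the numbered columns.

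Reads were recovered from the FPKM steps for 29390 genes, with 539713 of 539713 values within 0.05 of a whole read, by construction of the step. Groups of at most 3 reads in every library give folds as bounds against 3 reads per library, which cover counting error only. FPKM was used without further scaling. For D6, 24 h and 4 h were fitted in limma (3.58.1, R 4.3.3) on log2(FPKM + 0.1) with trended variance and no replicate block, for genes with a mean of at least 0.5 FPKM over the 6 libraries, and adjusted p-values are Benjamini-Hochberg over all genes tested. Shares of all genes elsewhere use the same mean of 0.5 over the libraries compared. Other steps used Python 3.11.15, numpy 2.4.6, pandas 2.3.3 and matplotlib 3.10.9.

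The genes and lists were chosen with earlier results of these data known. Named genes are the 25 ranked highest, all histone and replication members, the 5 largest and 5 smallest log2FC between 24 h and 4 h in D6 and differences of X2 minus D6 at 4 h, the first 2 members of each other list and 3 on either side of the limit. Other named genes (those described in the study's tables, those at the extremes of a count, and those said to be so in the text) were added after their values were seen. The individual values of 1 gene are not reported here. Descriptions come from the study's tables, which cover 720 genes. The RefSeq table used here matched 0 of the 150 identifiers, so promoter motifs were not searched and other genes of the lists were counted only where described. Alternatives were pseudocounts of 1 and 0.01, no filter or a mean of at least 1 FPKM, median-of-ratios size factors, an adjusted p of at most 0.05, |log2FC| of at least 1.5, 1 fit over all D6 libraries of 4, 12 and 24 h, a replicate block, limma-voom on the recovered reads and each library left out.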

Additional observations from a re-analysis of the deposited data

Results flagged for a closer look

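In groups of 1 to 3 libraries no library was tested for standing apart from its group. The results given here are those in which every library of one cultivar moved one way between 2 times and every library of the other moved the opposite way. The difference between the cultivars was not tested, and the X2 values are among those that chose the genes. Expansin (PGSC0003DMG400023815) was higher in X2 at 12 h than at 4 h, at a log2 ratio of means of 2.29, and lower in D6, at -0.37. Between 24 h and 4 h the ratios were 2.47 in X2 and -1.62 in D6.

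Between 24 h and 12 h, with 2 X2 libraries at 24 h, 7 genes given here were higher at 24 h in X2 and lower in D6. Opposite moves of this kind, and of the kind given for expansin, were not counted over all genes. With groups this small and no such share beside them, no contrast between the cultivars is read from the number. Endo-beta-1,4-D-glucanase (PGSC0003DMG400012288) had log2 ratios of 0.62 in X2 and -1.76 in D6. The gene described as ROX1 (PGSC0003DMG400031775) had 0.73 in X2 and -0.65 in D6. The others were PGSC0003DMG400012816 (0.23 in X2 and -0.63 in D6), PGSC0003DMG400008629 (0.51 and -0.25), PGSC0003DMG400024274 (0.53 and -0.25), PGSC0003DMG400001627 (0.76 and -0.18) and PGSC0003DMG400019350 (0.41 and -0.11), each with X2 before D6.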

How the results depend on the processing

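The number of the 150 genes called higher in D6 at 24 h than at 4 h was 132, and 124 to 137 under the planned settings other than leaving out a library. Without 1 library it was 126 to 139, and the 1 gene called lower was called in every setting run. Of the 132 genes, 120 were called higher in every setting and 126 without each library in turn. Over all genes, equal replicate numbers did not mark libraries that deviated together (correlations of deviations of 0.18, -0.08 and -0.03 for replicates 1, 2 and 3 between 24 h and 4 h), and a replicate block gave 137 genes called higher and 1 lower. The 5 genes called only with the block were PGSC0003DMG400023627, PGSC0003DMG400032260, PGSC0003DMG400006237, PGSC0003DMG401023631 and PGSC0003DMG402000216, all 5 among the 25 with replicate 2 highest throughout in D6, and no call was lost. Of 719 repeats for the 45 named genes, 696 left direction and call in place and 3 turned the direction. Those 3 were not called, namely endo-beta-1,4-D-glucanase (log2FC -0.11 to 0.34 without 1 library, negative without replicate 3 of 24 h), PGSC0003DMG400030566 (-0.12 to 0.36, negative without replicate 3 of 24 h) and PGSC0003DMG400021437 (-0.15 to 0.42, negative without replicate 1 of 4 h). The top 150 shared 107 genes with the set at a 12 h mean of at least 10 FPKM and 128 to 146 with those of the other planned settings. Without 1 X2 library it shared 132 to 149. The number of genes at least 2-fold higher in X2 than in D6 at 4 h, 8 in the values above, was 4 with a pseudocount of 1, 5 with size factors, and 5 to 9 without 1 library, with 5 reached without replicate 1 of D6. The cause was not tested. These settings for the descriptions were chosen after seeing the data. Depth limited little at 12 and 24 h, but 5 genes at 0 h in X2 held at most 3 reads in every library. With 2 libraries at 24 h in X2 and 1 at 0 h in D6, spreads there rest on few or no replicates.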
